A study of Homo sapiens with 6 samples.

Results

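The genes described here encode EGR1, the AP-1 proteins FOS, FOSL1, FOSL2, JUN, JUNB, JUND and ATF3, the growth regulator MYC, and SRF, a DNA-binding protein that acts on genes of this kind. They were picked by name, and each of the 10 names was found among the 12180 genes of the gene table, with 23 of the 33090 transcripts of the transcript table. The names were chosen by their known roles and with the measured difference between FGL1-OE and NC cells in these same libraries in view. The values of that difference are therefore given as a description, with its standard error (SE) and without a p-value. EGR1 and FOS lay higher in each FGL1-OE library than in any NC library. The other 8 genes overlapped between the groups, and MYC was high in 1 FGL1-OE library alone.

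RNA-seq was carried out on TE1 (TE-1), a cell line from a human esophageal squamous cell carcinoma (ESCC), to ask which genes change when FGL1 is raised. FGL1 encodes a secreted fibrinogen-like protein. The 3 FGL1-OE libraries came from TE1 cells carrying a lentivirus with the FGL1 coding sequence and kept under puromycin to give a stable line. The 3 NC libraries are the controls, whose genotype the sample labels give as wild type, while the study's methods describe a virus with random nonsense sequences for NC. The labels state no irradiation for either group, and whether the libraries of a group came from separate cultures is not stated, so the spread between them may be technical. Immediate early genes are those whose transcription starts within minutes of a growth factor or stress signal, without new protein synthesis. Signals through the ERK and JNK kinases reach SRF and its partners, which bind CArG boxes before genes such as EGR1 and FOS. FOS and JUN family proteins pair to form AP-1, which binds DNA and switches on further genes, EGR1 is a zinc finger activator, and MYC pairs with MAX to drive growth genes.

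The DNA around the start of these genes is shown because it differs among them in the sites that SRF and related factors are known to bind. The sequences are RefSeq windows on GRCh38.p14 from 250 bases before to 50 bases after the annotated start, read 5′ to 3′ along the gene, and 8 of the 10 genes matched at least 1 window. Capitals mark CArG boxes, the word TGACG bound by CREB and ATF proteins, its palindrome TGACGTCA, the AP-1 word TGACTCA and the TATA word TATAAA. All were searched on both strands, and TGACG also lies inside the palindrome. EGR1, FOS and SRF are printed, the first pair for the 2 genes that were higher in every FGL1-OE library and the last as the gene of the CArG-binding factor itself. The windows are chr5:138465229-138465528 on the plus strand for EGR1, chr14:75278578-75278877 on the plus strand for FOS and chr6:43171019-43171318 on the plus strand for SRF.
EGR1: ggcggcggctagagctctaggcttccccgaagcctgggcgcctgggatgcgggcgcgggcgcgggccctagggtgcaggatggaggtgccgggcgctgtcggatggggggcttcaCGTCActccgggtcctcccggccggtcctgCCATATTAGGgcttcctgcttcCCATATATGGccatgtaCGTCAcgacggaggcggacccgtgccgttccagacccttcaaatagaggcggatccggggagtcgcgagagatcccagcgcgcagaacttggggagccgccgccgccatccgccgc
FOS: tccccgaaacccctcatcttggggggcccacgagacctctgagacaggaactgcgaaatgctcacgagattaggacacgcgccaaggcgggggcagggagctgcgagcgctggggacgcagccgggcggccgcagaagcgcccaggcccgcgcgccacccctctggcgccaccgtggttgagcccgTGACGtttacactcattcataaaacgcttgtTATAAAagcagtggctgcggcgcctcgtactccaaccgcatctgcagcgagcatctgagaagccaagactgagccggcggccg
SRF: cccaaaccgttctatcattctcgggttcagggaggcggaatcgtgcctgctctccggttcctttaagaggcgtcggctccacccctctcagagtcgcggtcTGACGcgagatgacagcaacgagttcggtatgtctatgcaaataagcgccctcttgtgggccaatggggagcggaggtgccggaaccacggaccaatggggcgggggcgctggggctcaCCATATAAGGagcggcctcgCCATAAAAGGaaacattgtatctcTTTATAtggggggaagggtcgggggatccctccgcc
The EGR1 window held 2 CArG boxes, at positions -105 to -96 and -83 to -74 counted back from the start, and 2 antisense TGACG words. The SRF window also held 2 CArG boxes, at -30 to -21 and -10 to -1, with 1 TGACG and 1 antisense TATAAA. No CArG box was found in the windows of the other 6 matched genes or in the second SRF window. Sites more than 250 bases before the start were not searched. A window without a CArG box, such as that of FOS, therefore does not show that the gene lacks one. Across all 35116 RefSeq windows of this length, 1.29% held a CArG box. The FOS window held TGACG at -64 to -60 and TATAAA at -33 to -28, words found in 24.6% and 11.5% of all windows. JUNB had the same pair of words at -137 to -133 and -31 to -26. JUND held the longer TGACGTCA at -200 to -193, a word in 1.85% of windows, and FOSL2 held TGACTCA at 5 to 11 after the start, a word in 4.95% of windows. JUN held TGACG at -123 to -119. These matches describe letters in the windows and are not measured binding sites.

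Levels are in FPKM as deposited by the authors, a unit that corrects for transcript length and sequencing depth, and without read counts the depth of the libraries is unknown. FGL1 was at 0.0202, 0 and 0.106 FPKM in the NC libraries, against 33.5, 39.3 and 39.9 FPKM in the FGL1-OE libraries, which matched the labels. The NC libraries stood further apart than the FGL1-OE libraries. On log2(FPKM + 1) across genes, NC 1 and NC 2 had a Pearson correlation of 0.885, while any pair of FGL1-OE libraries had at least 0.981. The difference between NC 1 and NC 2 followed GC content (Spearman's rho 0.788 across 11775 genes of the same 2 libraries). The difference between FGL1-OE 1 and FGL1-OE 2 also followed GC content, less closely (Spearman's rho 0.544 across 11775 genes). Of 8 squamous markers 6 were analysed, and they summed to 329 to 643 FPKM in NC and 514 to 604 FPKM in FGL1-OE, most of it SFN and KRT6A. TP63, a defining squamous factor, was at only 0.299 to 0.779 FPKM in the 6 libraries. KRT6A, a keratin of stratified epithelia, was at 108 to 160 FPKM in NC and 183 to 197 FPKM in FGL1-OE, and the part of this marker in the results below was not tested. Of 11 markers of fibroblasts, immune cells and vessels 3 were analysed (COL1A1, COL1A2 and CD14), at a sum of 2.52 to 8.96 FPKM in NC and 3.39 to 6.36 FPKM in FGL1-OE. None of these 3 was at 0, and KRT14, SOX2 and the other 8 markers are not analysed here. In all that follows, values listed for a group are in the order of replicates 1, 2 and 3. In bulk RNA, more cells with a transcript and more transcript per cell cannot be told apart.

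EGR1 (chr5:137801179-137805004 on GRCh37), the zinc finger activator, was at 12.7, 15.3 and 12.0 FPKM in the NC libraries, against 31.6, 36.3 and 29.7 FPKM in the FGL1-OE libraries. The FGL1-OE libraries all lay above the NC libraries, and the lowest FGL1-OE value was well over the highest NC value. The mean was 13.3 ± 1.77 FPKM (SD, n = 3) for NC against 32.6 ± 3.41 FPKM (SD, n = 3) for FGL1-OE, at a ratio of 2.44. Taken as the difference of log2(FPKM + 1) between the groups, the log2 fold change was 1.23 (SE 0.16). It ranged from 1.15 to 1.33 when each library was left out in turn, with 1.33 without NC 2. The transcript table lists 1 EGR1 transcript, EGR1-201, with the same values as the gene. The 2 CArG boxes printed above lie before the start of this gene.

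FOS (chr14:75745477-75748933 on GRCh37), the partner of JUN proteins in AP-1, was the gene of the 10 with the lowest mean FPKM in both groups. Its values were 0.966, 1.43 and 0.786 FPKM in the NC libraries, against 3.72, 3.57 and 2.33 FPKM in the FGL1-OE libraries. The groups did not overlap, with FGL1-OE 3 the lowest of the FGL1-OE libraries and NC 2 the highest of the controls. The mean was 1.06 ± 0.331 FPKM (SD, n = 3) for NC against 3.21 ± 0.762 FPKM (SD, n = 3) for FGL1-OE, at a ratio of 3.02. The log2 fold change was 1.02 (SE 0.20) with a pseudocount of 1, which understates the change of a gene this low, and 1.52 with a pseudocount of 0.1. Leaving out 1 library gave 0.93 to 1.18.

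**Figure D1:**
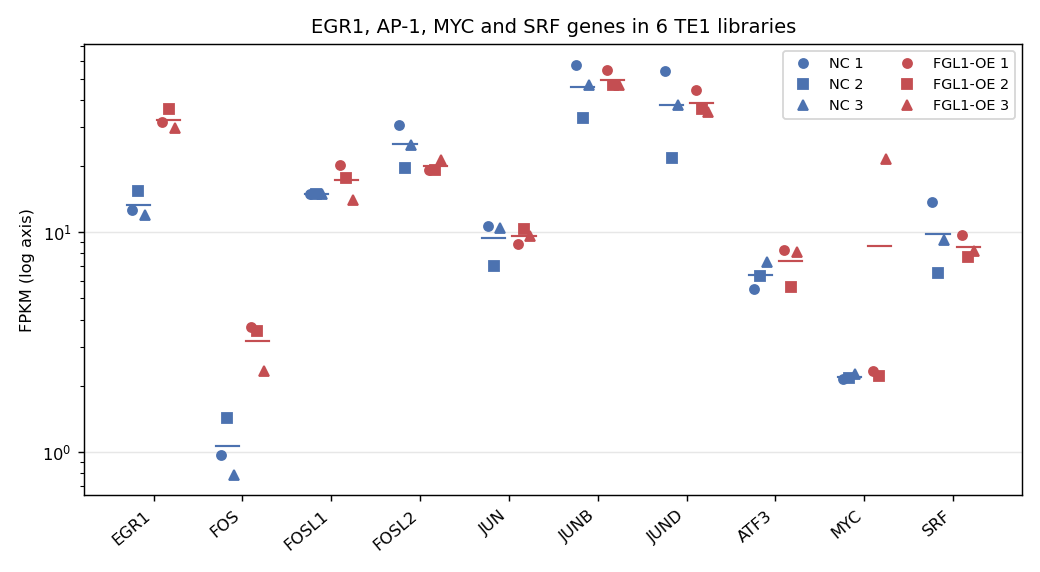
FPKM on a log axis of the 10 genes in 3 NC libraries (blue) and 3 FGL1-OE libraries (red), with a marker shape for each replicate number and a bar at each group mean. EGR1 and FOS show red points that all lie above the blue points, MYC has 1 red point at 21.5 FPKM, and the NC points of JUND reach from 21.8 to 54.4 FPKM.

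FOSL1 (chr11:65659520-65668044 on GRCh37) and FOSL2 (chr2:28615315-28640179 on GRCh37) encode the other analysed FOS family proteins, which also pair with JUN proteins. FOSL1 was at 14.9 FPKM in each NC library, against 20.2, 17.6 and 14.1 FPKM in the FGL1-OE libraries. FGL1-OE 1 and 2 lay above the controls and FGL1-OE 3 lay below them. For FOSL1 the difference on the log2 scale was 0.18 (SE 0.17). FOSL2 was at 30.8, 19.7 and 24.9 FPKM in the NC libraries, against 19.1, 19.3 and 21.4 FPKM in the FGL1-OE libraries, so that only NC 1 and NC 3 stood above all FGL1-OE libraries. Its log2 fold change was -0.30 (SE 0.19), and it stayed below 0 when any 1 library was left out, from -0.46 to -0.15.

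The JUN family supplies the partner of the FOS family in AP-1, and none of its 3 genes separated the groups. JUN (chr1:59246460-59249999 on GRCh37) was at 10.6, 7.04 and 10.5 FPKM in the NC libraries, against 8.84, 10.4 and 9.59 FPKM in the FGL1-OE libraries. JUN had a log2 fold change of 0.047 (SE 0.19), and it was -0.13 without NC 2 and -0.0054 without FGL1-OE 2. JUNB (chr19:12902310-12904129 on GRCh37), often a weaker activator than JUN, was at 57.9, 32.9 and 46.5 FPKM in the NC libraries, against 54.9, 46.8 and 46.7 FPKM in the FGL1-OE libraries. All 3 FGL1-OE values fell inside the range of the controls. For JUNB the log2 fold change was 0.14 (SE 0.22), and -0.073 without NC 2. JUND (chr19:18390570-18392432 on GRCh37), the JUN family gene known for steady expression, was at 54.4, 21.8 and 38.0 FPKM in the NC libraries, against 44.5, 36.4 and 35.1 FPKM in the FGL1-OE libraries. Here too the FGL1-OE libraries lay within the span of the controls. JUND differed by 0.11 (SE 0.31) on the log2 scale, and this turned to -0.24 without NC 2.

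ATF3 (chr1:212738676-212794119 on GRCh37), a stress-induced protein that pairs with JUN proteins, was at 5.53, 6.33 and 7.34 FPKM in the NC libraries, against 8.28, 5.64 and 8.16 FPKM in the FGL1-OE libraries. FGL1-OE 1 and 3 were above the controls, and FGL1-OE 2 was among them, which gave a log2 fold change of 0.17 (SE 0.19). SRF (chr6:43139037-43149245 on GRCh37), whose own window holds CArG boxes, was at 13.8, 6.49 and 9.25 FPKM in the NC libraries, against 9.74, 7.73 and 8.20 FPKM in the FGL1-OE libraries. The FGL1-OE libraries again lay inside the range of the controls. SRF had a log2 fold change of -0.13 (SE 0.25), and it was 0.12 without NC 1.

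MYC (chr8:128747680-128753680 on GRCh37) was at 2.15, 2.18 and 2.27 FPKM in the NC libraries, against 2.33, 2.21 and 21.5 FPKM in the FGL1-OE libraries. FGL1-OE 3 stood alone, at 9.64 times the mean of the other 5 libraries, which averaged 2.23 ± 0.072 FPKM (SD, n = 5). The log2 fold change of 0.96 (SE 0.69) rested on that library, and it was 0.033 (SE 0.19) without it. FGL1-OE 3 did not stand apart across genes, with a correlation of at least 0.983 to the other FGL1-OE libraries. It held 5 genes at 5 FPKM or more and at least 5-fold above every other library, against 0 to 3 in each of the other libraries. These 5, named after their values were seen, were MYC, AC118553.2, AL136295.1, and the readthrough genes RAB4B-EGLN2 and SENP3-EIF4A1. Of 15 known MYC targets, 1 was higher in FGL1-OE 3 than in both other FGL1-OE libraries and 2 were lower than in both. The ratio of FGL1-OE 3 to the mean of the other 2 was 0.841 to 1.07 over these 15 genes.

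**Figure D2:**
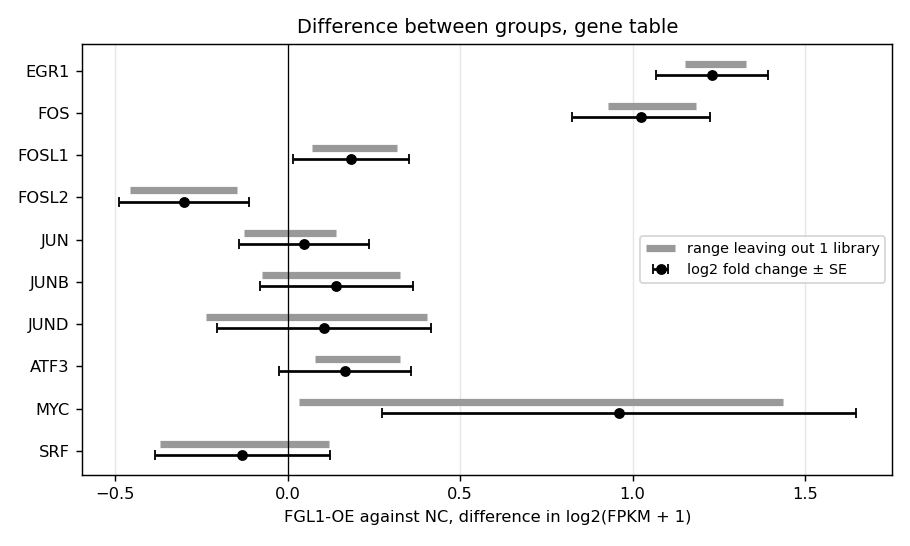
Difference in log2(FPKM + 1) between FGL1-OE and NC for the 10 genes (black points, bars ± SE from limma) with the range of the values obtained when each library was left out in turn (gray bars). The gray bars of EGR1 (1.15 to 1.33) and FOS (0.93 to 1.18) keep away from 0, those of JUN, JUNB, JUND and SRF cross 0, and that of MYC runs from 0.033 to 1.44.

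Of the 10 genes, 2 were higher without overlap between the groups and 0 were lower, and the background among the 12017 genes tested was 4.09% higher and 3.06% lower. Unadjusted p-values under 0.05 in limma's fit were found for 2 of the 10, against 2.01% of the genes tested. After Benjamini-Hochberg adjustment over all genes tested, 0 of the 10 passed in limma's fit, and 1 gene did in all, FGL1 itself (0.00832%). Without NC 2, EGR1 was 1 of the 7 genes that passed (0.0583%). Leaving out NC 2 also gave 2 genes higher without overlap (EGR1 and FOS) and 2 lower (FOSL2 and JUN), at a background of 21.6% and 21.2%. With any other library left out, 2 to 4 were higher and 0 to 1 lower, EGR1 and FOS among the higher each time, while 5.58% to 8.21% of all genes tested were higher and 4.77% to 7.38% lower. Since the same contrast was in view when the genes were named, nothing is read from these counts or from the call of EGR1 without NC 2. The median log2 fold change was 0.15 for the 10 genes, with 8 values above 0, and 0.016 for all genes tested. It ranged from 0.045 to 0.25 when each library was left out.

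The genes can be ordered by FPKM, a scale per length, within each group. In NC the order from the highest mean was JUNB, JUND, FOSL2, FOSL1, EGR1, SRF, JUN, ATF3, MYC and FOS. The ranges of neighbours were apart at 3 steps, below FOSL2, below ATF3 and below MYC, and overlapped at the other 6. In FGL1-OE the order was JUNB, JUND, EGR1, FOSL2, FOSL1, JUN, MYC, SRF, ATF3 and FOS, with ranges apart at 4 steps, below JUNB, below EGR1, below FOSL1 and below ATF3. EGR1 was thus the fifth gene in NC and the third in FGL1-OE, where its range was apart from that of FOSL2. By the mean of the 6 libraries, JUNB was in the 93.9th percentile of the genes listed, JUND in the 92.0th, EGR1 in the 85.4th and FOS in the 23.5th.

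The genes differed in how far the controls spread, and the difference between NC 1 and NC 2 was higher at higher GC content. JUND had the highest GC content of the 10 in its most abundant transcript, 69.7%, in the 99.4th percentile of genes, and the largest log2 difference between NC 1 and NC 2, 1.28. JUNB (64.9% GC, difference 0.80) and SRF (60.9% GC, difference 0.98) came next in GC content. EGR1 at 55.4% GC and FOS at 52.6% GC were lower in NC 1 than in NC 2, by differences of -0.26 and -0.30. FOSL1 and MYC, at 60.0% and 58.7% GC, hardly differed between these libraries, with -0.00083 and -0.013. The median GC content over all genes with a value was 50.1%. The SD of log2(FPKM + 1) was larger in NC than in FGL1-OE for 6 of the 10 genes, against 84.1% of all genes tested. With the GC and length trend removed from each library, an alternative chosen after seeing the data, EGR1 had a log2 fold change of 1.26 and FOS of 1.02. In the same fit JUNB was at 0.27 (SE 0.095), JUND at 0.30 (SE 0.098), JUN at 0.089 (SE 0.12) and SRF at -0.039 (SE 0.12). FOSL1 was at 0.25 (SE 0.18), FOSL2 at -0.28 (SE 0.14), ATF3 at 0.15 (SE 0.16) and MYC at 1.00 (SE 0.72).

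**Figure D3:**
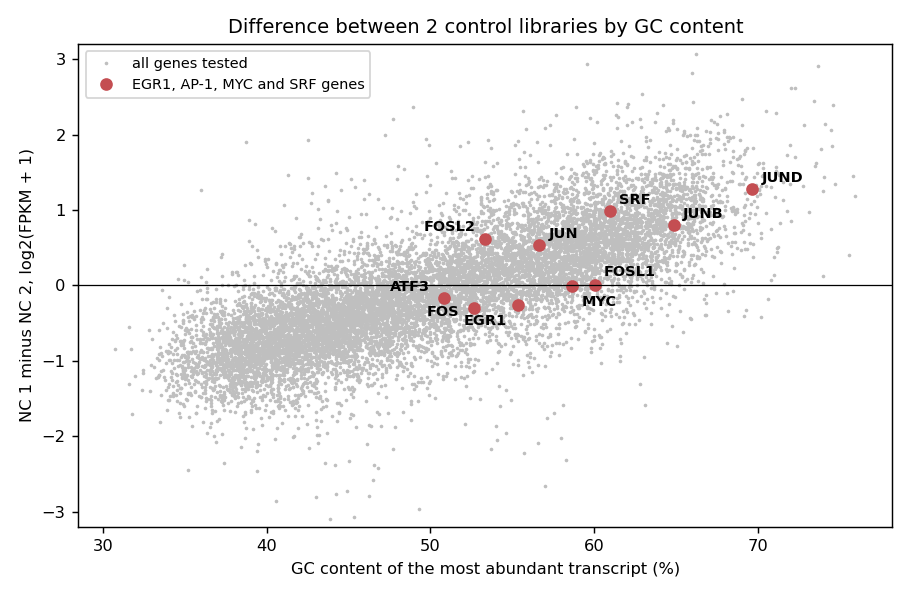
Difference in log2(FPKM + 1) between NC 1 and NC 2 against the GC content of each gene's most abundant transcript in percent, for all genes tested (gray) and the 10 genes (red). JUND at 69.7% GC and a difference of 1.28 lies at the upper right of the red points, EGR1, FOS and ATF3 lie below 0, and 5 gray genes lie outside the plotted range.

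The transcript table divides each gene into annotated transcripts, whose FPKM need not add up to that of the gene. EGR1, JUN, JUNB and SRF had 1 listed transcript each. Of the 23 transcripts, 4 were higher in FGL1-OE without overlap and 0 lower, against 4.65% and 3.57% of the 30330 transcripts tested. After adjustment 0 of the 23 passed in limma's fit, against 0.0165% of all transcripts, and 4 had an unadjusted p-value under 0.05, against 3.53% of all transcripts. Those without overlap were EGR1-201, FOS-201, FOS-206 and FOSL1-204, and nothing is read from these counts either.

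FOS-201 (ENST00000303562), the FOS transcript of highest mean level, was at 0.325, 1.49 and 0.391 FPKM in the NC libraries, against 3.50, 2.73 and 2.06 FPKM in the FGL1-OE libraries. FOS-206 was at 0.627, 0.326 and 0.128 FPKM in the NC libraries, against 1.89, 2.67 and 0.632 FPKM in the FGL1-OE libraries, so its groups met closely at NC 1 and FGL1-OE 3. The log2 fold changes were 1.16 (SE 0.34) and 0.94 (SE 0.37). FOS-205 and FOS-204 overlapped between the groups, at 0.183 to 1.66 FPKM over all libraries. The 4 FOS transcripts summed to 2.53 to 2.84 FPKM in NC and 5.51 to 6.97 FPKM in FGL1-OE, above the gene's own FPKM, with a log2 fold change of 1.02 for the sum.

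Within FOSL1, a single transcript separated the groups although the gene did not. FOSL1-204 (ENST00000532401) was at 1.42, 2.17 and 1.63 FPKM in the NC libraries, against 4.65, 5.51 and 3.75 FPKM in the FGL1-OE libraries. All FGL1-OE values were above all NC values, with a log2 fold change of 1.04 (SE 0.25). It took 9.05% of the summed FPKM of the 4 FOSL1 transcripts in NC and 19.9% in FGL1-OE. FOSL1-201, the most abundant, was at 11.7, 9.11 and 11.2 FPKM in the NC libraries, against 11.5, 9.66 and 7.48 FPKM in the FGL1-OE libraries, and FOSL1-203 was at 2.70, 8.33 and 4.45 FPKM in the NC libraries, against 8.58, 6.93 and 7.06 FPKM in the FGL1-OE libraries. Both overlapped between the groups, as did FOSL1-202 at 0.392 to 2.68 FPKM. FOSL1-204 is named for this pattern, after its values were seen.

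ATF3 and MYC each had transcripts that were high in 1 library only. ATF3-206 was at 10.5 FPKM in NC 2 and listed at 0 in the other 5 libraries, and in NC 2 the more abundant ATF3-202 was at 1.30 FPKM, its lowest value. Elsewhere ATF3-202 reached 8.85 FPKM (NC 1) and 13.2 FPKM (NC 3), against 13.4, 5.45 and 14.4 FPKM in the FGL1-OE libraries. ATF3-210 was at 4.28 FPKM in FGL1-OE 2 but at most 0.380 FPKM elsewhere, and ATF3-204 was at 0.238 to 1.11 FPKM. The gene value of ATF3 stayed between 5.53 and 8.28 FPKM throughout. MYC-206 was at 38.8 FPKM in FGL1-OE 3 while the other libraries held 1.98 to 2.78 FPKM, a ratio of 15.7 to their mean. MYC-205 was also highest in FGL1-OE 3, at 3.91 FPKM against 0.233 to 0.602 FPKM. MYC-204 was not, with 1.79 FPKM in FGL1-OE 3 against 0.447 to 4.30 FPKM in the others. FOSL2-201 and JUND-201 each held over 97.5% of the summed FPKM of their gene in both groups, with FOSL2-203 at 0.206 to 0.940 FPKM and JUND-202 at 0.566 to 1.14 FPKM.

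**Figure D4:**
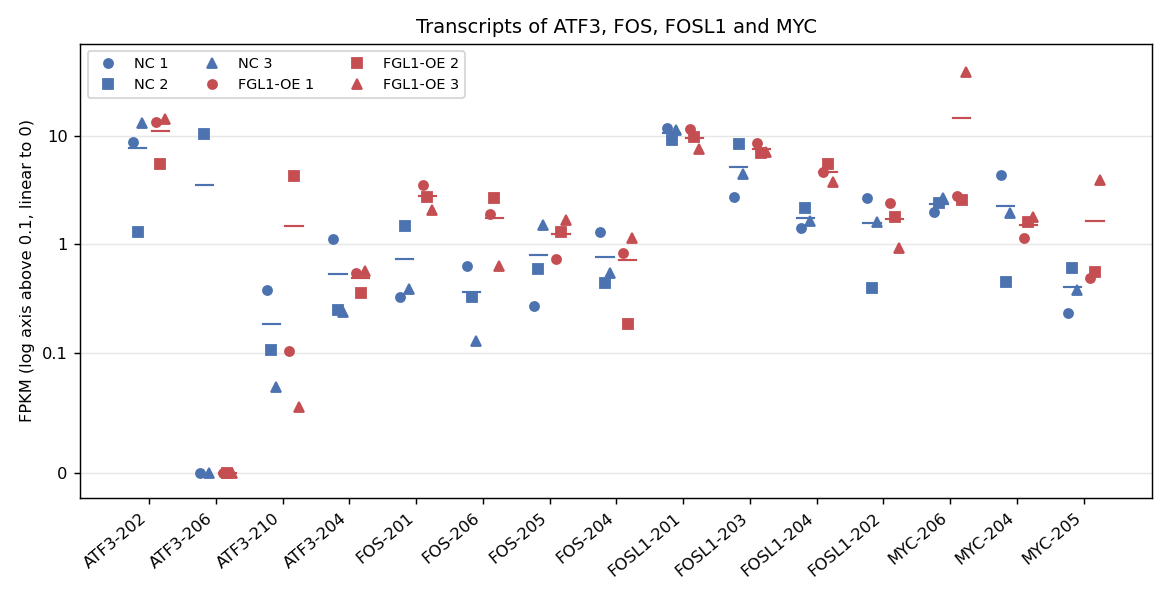
FPKM of the listed transcripts of ATF3, FOS, FOSL1 and MYC in 3 NC libraries (blue) and 3 FGL1-OE libraries (red) on an axis that is log above 0.1 and linear to 0, with a bar at each group mean. FOSL1-204 and FOS-201 have red points above all blue points, MYC-206 has 1 red point at 38.8 FPKM, and ATF3-206 has 1 blue point at 10.5 FPKM with the others at 0.

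Across the 12017 genes tested, those whose pattern over the 6 libraries was most like that of EGR1 were FOS, SCD, IER3, SLC29A2 and BTG2. Likeness was the root mean square difference between the deviations of log2(FPKM + 1) from each gene's own mean, and it was 0.161, 0.190, 0.192, 0.256 and 0.279 in that order. SCD, a desaturase of fatty acid synthesis, was at 39.3, 65.2 and 51.4 FPKM in the NC libraries, against 104, 115 and 119 FPKM in the FGL1-OE libraries. It shared with EGR1 a gap between the groups, but its highest library was FGL1-OE 3, where EGR1 had the lowest of its FGL1-OE values. SLC29A2, a nucleoside transporter, was at 4.88, 5.21 and 6.25 FPKM in the NC libraries, against 10.9, 10.6 and 11.3 FPKM in the FGL1-OE libraries. FOS, IER3 and BTG2 belong to the immediate early genes. All of the genes most like EGR1 were higher in FGL1-OE without overlap. This measure favors genes with a group difference near that of EGR1, a difference in view when EGR1 was named. The likeness is therefore a description and not independent evidence.

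Other immediate early genes were taken as a list of 28, of which 22 were tested, and EGR2, EGR3, EGR4, FOSB, NR4A2 and NR4A3 are not analysed here. The list was written with results of these libraries known, so its direction is not independent evidence. In limma's fit 0 of the 22 passed after adjustment over all genes tested, 6 had an unadjusted p-value under 0.05, and the same 6 were higher in FGL1-OE without overlap, beside 2.01% and 4.09% of all genes tested. The median log2 fold change of the 22 was 0.17 beside 0.016 for all genes, with 15 above 0, and it was 0.089 to 0.19 when each library was left out. IER3, a regulator of survival and ERK signaling, was at 33.1, 33.9 and 35.9 FPKM in the NC libraries, against 79.7, 68.4 and 70.2 FPKM in the FGL1-OE libraries. Its groups were wide apart, with a log2 fold change of 1.06 (SE 0.14) and an adjusted p = 0.294 in limma's fit after Benjamini-Hochberg correction. The adjusted p of IER3 lay between 0.0791 and 1.00 over its alternatives.

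DUSP1, a phosphatase that turns off MAP kinases, was at 26.9, 22.0 and 24.4 FPKM in the NC libraries, against 41.1, 40.7 and 40.9 FPKM in the FGL1-OE libraries, a log2 fold change of 0.73 (SE 0.14). BTG2, an antiproliferative gene, was at 5.95, 6.16 and 5.70 FPKM in the NC libraries, against 9.88, 11.9 and 9.08 FPKM in the FGL1-OE libraries, a log2 fold change of 0.69 (SE 0.15). CYR61 (CCN1), a secreted matrix protein, was at 94.4, 86.7 and 92.2 FPKM in the NC libraries, against 120, 123 and 119 FPKM in the FGL1-OE libraries, a log2 fold change of 0.40 (SE 0.13). In all 3 genes the FGL1-OE libraries lay above the controls. HBEGF, a ligand of the EGF receptor, and CTGF (CCN2), a matrix protein related to CYR61, complete the 6 genes without overlap, with log2 fold changes of 0.48 (SE 0.18) and 0.44 (SE 0.16). MCL1, a survival protein and after CYR61 the gene of highest mean FPKM in the list, was at 48.6 to 68.1 FPKM in NC and 53.7 to 63.2 FPKM in FGL1-OE, with overlap. KLF6 had the lowest log2 fold change of the list, -0.78 (SE 0.40), with values of 5.80, 17.7 and 5.89 FPKM in the FGL1-OE libraries.

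**Figure D5:**
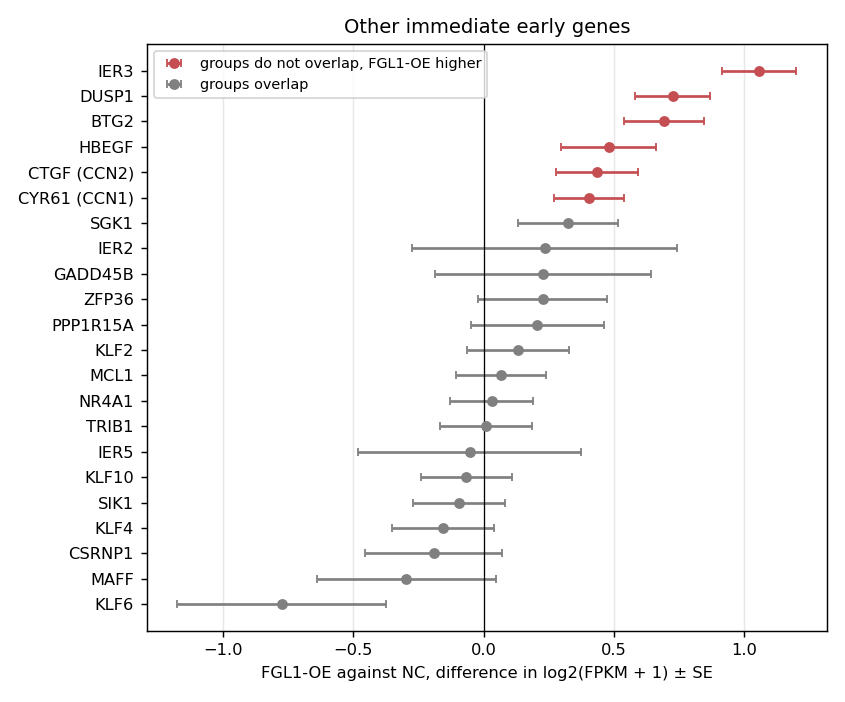
Difference in log2(FPKM + 1) between FGL1-OE and NC (points, bars ± SE from limma) for the 22 tested genes of the list of other immediate early genes. Red marks the 6 genes whose groups do not overlap, from IER3 at 1.06 to CYR61 (CCN1) at 0.40, and gray marks genes with overlap, down to KLF6 at -0.78.

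Further partners of the FOS and JUN proteins were represented by 6 tested genes of 10, and 0 passed at either an adjusted or an unadjusted p under 0.05 in limma's fit. Their median log2 fold change was 0.043. ATF4, a stress-response activator and the most abundant of them, was at 182 to 244 FPKM in NC and 211 to 214 FPKM in FGL1-OE. JDP2, a repressor that pairs with JUN, was at 6.97 to 17.6 FPKM in NC and 9.16 to 11.3 FPKM in FGL1-OE. SRF cofactors and the NAB repressors of EGR1 gave 7 tested genes of 8, with 0 past either threshold and a median of -0.10. NAB2, which binds EGR1 and is itself a known EGR1 target, was at 20.3, 10.5 and 23.9 FPKM in the NC libraries, against 11.4, 9.24 and 13.1 FPKM in the FGL1-OE libraries, with a log2 fold change of -0.59 (SE 0.29). MKL1 (MRTFA), an SRF cofactor that senses actin, was at 7.59 to 12.6 FPKM in NC and 8.72 to 9.23 FPKM in FGL1-OE.

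The kinases before these factors, in the ERK and JNK pathway, gave 19 tested genes of 19. Their median log2 fold change was 0.064. In limma's fit 0 of the 19 passed after adjustment and 1 had an unadjusted p-value under 0.05, beside 2.01% of all genes tested. That gene was MAPK14, the p38-alpha kinase, at 4.41, 5.61 and 5.58 FPKM in the NC libraries, against 12.4, 6.03 and 13.1 FPKM in the FGL1-OE libraries. FGL1-OE 2 lay close to the controls and the other FGL1-OE libraries well above them, with a log2 fold change of 0.83 (SE 0.28). MAP2K2 (MEK2), a kinase of the ERK cascade, was at 16.0 to 41.4 FPKM in NC and 23.6 to 29.5 FPKM in FGL1-OE. Its groups overlapped, with the controls spread over a wider range than FGL1-OE.

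Known targets of AP-1 gave 14 tested genes of 16, with a median log2 fold change of 0.16. In limma's fit 0 of the 14 passed the adjusted threshold and 2 had an unadjusted p-value under 0.05, beside 2.01% of all genes tested. IL6, a cytokine, was at 7.90, 17.4 and 13.0 FPKM in the NC libraries, against 21.1, 21.5 and 20.4 FPKM in the FGL1-OE libraries. CXCL8, a neutrophil chemokine, was at 0.491, 1.96 and 1.52 FPKM in the NC libraries, against 2.10, 3.74 and 2.38 FPKM in the FGL1-OE libraries. Neither gene overlapped between the groups, and the log2 fold changes were 0.74 (SE 0.26) and 0.72 (SE 0.29). Of the 14 target genes, 5 were higher and 0 lower without overlap, beside 4.09% and 3.06% of all genes tested, and these include MMP1 and MMP3, named after their values were seen. MMP1, a collagenase, was at 0.856 to 1.15 FPKM in NC, against 1.62, 6.87 and 1.40 FPKM in the FGL1-OE libraries. MMP3, another matrix metalloproteinase, was at 0, 0 and 0.0366 FPKM in the NC libraries, against 0.474, 6.18 and 0.0402 FPKM in the FGL1-OE libraries. The groups of MMP3 were thus apart only by a small gap near 0 FPKM, between NC 3 and FGL1-OE 3. CCND1, the cyclin of G1 phase, was at 57.5 to 65.6 FPKM in NC and 61.2 to 65.6 FPKM in FGL1-OE, and TIMP1, a protease inhibitor, at 42.9 to 51.6 and 47.4 to 56.3 FPKM.

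Known EGR1 targets gave 8 tested genes of 8, with 0 past either threshold in limma's fit, 0 without overlap and a median log2 fold change of 0.062. F3, the tissue factor of coagulation, was at 30.2, 56.0 and 36.8 FPKM in the NC libraries, against 47.2, 53.1 and 51.8 FPKM in the FGL1-OE libraries. ICAM1, an adhesion molecule, was at 18.2 to 20.3 FPKM in NC and 18.8 to 19.9 FPKM in FGL1-OE. SRF targets of the actin cytoskeleton gave 12 tested genes of 12, with a median of 0.032. In limma's fit 0 of the 12 passed the adjusted threshold and 1 had an unadjusted p under 0.05, beside 2.01% of all genes tested. TAGLN, an actin-binding protein, was that gene, at 12.2, 6.78 and 11.2 FPKM in the NC libraries, against 18.2, 12.5 and 14.8 FPKM in the FGL1-OE libraries, a log2 fold change of 0.57 (SE 0.24). TAGLN, TAGLN2, ACTN1 and MYL9 were higher without overlap and VCL was lower without overlap, beside the same 4.09% and 3.06%, ACTN1, MYL9 and VCL being named after their values were seen. The groups of TAGLN were apart only by a small gap, between NC 1 at 12.2 FPKM and FGL1-OE 2 at 12.5 FPKM. TAGLN2 also had only a small gap, at 206.0 to 206.8 FPKM in NC and 207.4 to 264.6 FPKM in FGL1-OE. ACTB was at 520 to 625 FPKM in NC and 525 to 685 FPKM in FGL1-OE.

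Other genes of the MYC and MAX network gave 10 tested genes of 11, with 0 past either threshold in limma's fit and a median log2 fold change of -0.042. MAX, the obligate partner of MYC, was at 6.51, 6.06 and 7.33 FPKM in the NC libraries, against 8.84, 8.23 and 8.05 FPKM in the FGL1-OE libraries, and it and MXI1, a repressor named after its values were seen, were the 2 genes higher without overlap, beside 4.09% of all genes tested. MLX, a MAX-like protein, was at 6.84 to 12.9 FPKM in NC and 8.16 to 12.9 FPKM in FGL1-OE. MYC targets gave 15 tested genes of 15, with 0 past either threshold and a median of 0.12. NPM1, a nucleolar chaperone, was at 164 to 222 FPKM in NC and 219 to 233 FPKM in FGL1-OE, and NCL, another nucleolar protein, at 112 to 128 and 106 to 131 FPKM. The summed FPKM of the 15 targets was 976 in FGL1-OE 3, between 969 in FGL1-OE 2 and 1000 in FGL1-OE 1. Over all lists but the markers, 112 genes were tested. In limma's fit 0 of them passed the adjusted threshold and 10 had an unadjusted p under 0.05, beside 2.01% of all genes tested. The lists were written with results of these libraries known, so nothing is read from this count. The ordinary linear model also called 0 of these genes.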

How the data were processed

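Processed tables from RNA-seq of 3 NC and 3 FGL1-OE libraries of TE1 cells were used. The study's methods describe mRNA enriched with oligo(dT) beads, while the protocol in the labels leaves poly(A) selection or rRNA removal as alternatives. The authors deposited FPKM values for 12180 genes and 33090 transcripts. StringTie and GRCh37 are named in the submitters' processing notes, and their versions, the aligner and the annotation release are not given in the sources used here. Of the features listed, 0 had a mean under 0.5 FPKM in both groups. Their columns of fold changes, p-values, q-values and group means hold the authors' own comparison and were not used. FPKM times length had no clear period of whole reads (strength 0.0919 to 0.127 where 1 is exact), so no counts were recovered. Samples were grouped by the genotype in the labels.

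The 12017 genes and 30330 transcripts whose mean over the libraries reached 0.5 FPKM were fitted on the scale of log2(FPKM + 1), without covariates or scaling, by lmFit and eBayes of limma 3.58.1 (R 4.3.3). Benjamini-Hochberg correction was applied over each table, and 0.05 was the threshold. The code was tested on simulated data. GC content and length came from matching GENCODE transcripts, found for 97.6% of genes. Other steps used Python 3.11.15, pandas 2.3.3 and matplotlib 3.10.9. The 10 genes and all lists were chosen with earlier results of these data known. Named genes were the 10, FGL1, from each list the 2 of highest mean FPKM and those at an unadjusted p under 0.05 (at most 4), and the 5 most like EGR1. Some genes that this rule picks are not reported here. P-values measure only the spread between these libraries.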

Additional observations from a re-analysis of the deposited data

How the results depend on the processing

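With 3 libraries a group, unknown depth and differences that followed GC content between libraries of the same group, small differences cannot be resolved. The fits were repeated with quantile normalization, with scaling to TPM, with a pseudocount of 0.1, with the filter dropped or raised to 1 FPKM, with an ordinary linear model, with a replicate block, on summed transcripts and without each library in turn. Removal of the GC and length trend, the values of list genes and list medians under all settings, and the counts of genes without overlap with 1 library left out, were chosen after seeing the data. For every change below the cause was not tested.

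FGL1 stayed called in every alternative, at 5.16 to 5.29 with 1 library left out, and no list gene was called in any (0 to 0). At gene level 1 gene was called, 2 were called (FGL1, FAM234B) by the ordinary linear model, and the number ranged from 1 to 7 with 1 library left out, 7 without NC 2 and 2 without NC 1 or FGL1-OE 3. The number of transcripts called was 5, and 29 with a pseudocount of 0.1, 3 with an ordinary linear model, and 1 to 28 with 1 library left out, 28 without NC 2, 2 without NC 3 and 1 without FGL1-OE 2 or FGL1-OE 3. With the replicate block it was 0. Same-numbered libraries had correlations of deviations of 0.35, 0.28 and -0.061. NC 1 and NC 2 correlated best with the FGL1-OE library of their own number, and NC 3 with FGL1-OE 1 (0.11). These values cannot decide whether libraries of the same number were paired. The median of the 10 genes was 0.045 to 0.25 with 1 library left out.

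EGR1, FOS, FOSL1, FOSL2, ATF3 and MYC kept their direction in every alternative. For 4 of them the value came within its SE of 0 with 1 library left out. MYC was 0.033 (SE 0.19) without FGL1-OE 3 and FOSL1 was 0.071 (SE 0.19) without FGL1-OE 1. Without NC 1, ATF3 was 0.079 (SE 0.19) and FOSL2 was -0.15 (SE 0.16). FOS was 1.52 with a pseudocount of 0.1 and 1.42 after scaling to a common sum. That scaling made the values of all libraries larger, so the pseudocount of 1 weighed less, and the part of this in the change was not tested. MAP2K2 was 0.098 with the GC and length trend removed, ICAM1 was -0.0074 with quantile normalization, and the median of the MYC and MAX network was 0.019 with the trend removed. With 1 library left out, the log2 fold changes that crossed 0 ranged from -0.13 to 0.14 for JUN, -0.073 to 0.33 for JUNB, -0.24 to 0.40 for JUND, -0.37 to 0.12 for SRF, -0.041 to 0.20 for MCL1, -0.17 to 0.038 for ATF4, -0.077 to 0.35 for MLX, -0.38 to 0.28 for MAP2K2, -0.014 to 0.079 for CCND1, -0.010 to 0.062 for ICAM1, -0.087 to 0.11 for ACTB and -0.087 to 0.064 for NCL. List medians that crossed 0 ranged from -0.078 to 0.054 for partners, -0.16 to 0.10 for SRF cofactors and NAB repressors, -0.22 to 0.056 for the MYC and MAX network, -0.023 to 0.27 for the ERK and JNK pathway, -0.038 to 0.12 for SRF targets and -0.017 to 0.18 for MYC targets.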
